A study of Mus musculus with 9 samples.

Results

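The Slc25 mitochondrial carriers were followed in mouse hindlimb skeletal muscle at postnatal day 2, 7 and 14 (P2, P7 and P14). All genes whose mouse symbol is Slc25a and a number were taken, as named by probe sets that carry 1 gene symbol, and 46 genes were found among 22180 measured genes. Each of the 46 had 1 such probe set. Each age had 3 arrays that the sources call biological replicates. The strain is given as mixed, and no transgene or treatment is named. The labels do not say whether an array holds RNA of 1 pup or of several, so the p-values rest on the spread among these arrays, which may be partly technical. The carriers were sorted by substrate, and P7 was set against P2, P14 against P7, and P14 against P2.

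Carriers of this family sit mostly in the inner mitochondrial membrane and exchange solutes between the matrix and the rest of the cell. They bring in ADP, phosphate, acylcarnitines, amino acids and cofactors, and export ATP and metabolic intermediates. In skeletal muscle they link fuel breakdown and the electron transport chain to the ATP use of contraction.

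Values are log2 intensities per probe set, so a difference of 1 is a 2-fold change, and a level of 1 probe set is not compared with that of another. To judge dim signals, 1428 smell and taste receptor genes, which muscle is not known to use, served as background. The 95th percentile of their highest age mean was 3.43, called the receptor level below. Of the 46 carriers 36 exceeded it at 1 age or more, 35 of them at all 3 ages, and 10 stayed under it throughout. Those 10 were Slc25a2, Slc25a13, Slc25a14, Slc25a21, Slc25a31, Slc25a41, Slc25a43, Slc25a48, Slc25a53 and Slc25a54. All 8 muscle fibre markers were above the receptor level, and their summed linear intensity was 16300 to 17200 at P14 and 11400 to 12700 at P2. Between those ages their log2 changes ran from 0.1 to 1.19. By the rule given below 4 of them rose (6.63% of all genes did), and Acta1, Ttn, Des and Mylpf were not called. Replicates correlated across genes at 0.953 to 0.984, and carriers had a median SD of 0.27 for P2, 0.21 for P7 and 0.15 for P14. P2 replicate 2 was the lowest P2 array for each of the 3 measured erythroid and 8 neutrophil markers, and results that turn on it are given with and without it.

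Over the whole span 9 carriers rose and 1 fell between P2 and P14. The carriers that rose were the ADP/ATP carrier Slc25a4, the malate/oxoglutarate carrier Slc25a11, the aspartate/glutamate carrier Slc25a12, Slc25a16 and Slc25a42, which are tied to coenzyme A, the acylcarnitine carrier Slc25a20, the ATP-Mg/phosphate carrier Slc25a25, the pyrimidine nucleotide carrier Slc25a33, and Slc25a35, whose substrate was not assigned here. The carrier that fell was Slc25a24, another ATP-Mg/phosphate carrier. These are calls by limma at an adjusted p under 0.05 (Benjamini-Hochberg over all 22180 genes). They make 21.7% of the carriers, and the same rule called 11% of all genes (6.63% higher and 4.4% lower). An unadjusted p under 0.05 was reached by 19 carriers, or 41.3%, and by 24.3% of all genes. The arrays of P14 and P2 did not overlap in 17 carriers that were higher at P14 (37% of carriers and 16.2% of all genes) and in 3 that were lower (6.52% and 12.6%). The median log2 change was 0.22 over the 46 carriers and 0.013 over all genes. A moderated F-test over the 3 ages called 10 carriers and 8.24% of all genes. Among genes above the receptor level the rule for P14 against P2 called 27.8% of the 36 carriers and 17.4% of 13230 genes. In whole muscle, a change in the number of cells of a type and a change of RNA per cell cannot be told apart.

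**Figure D1:**
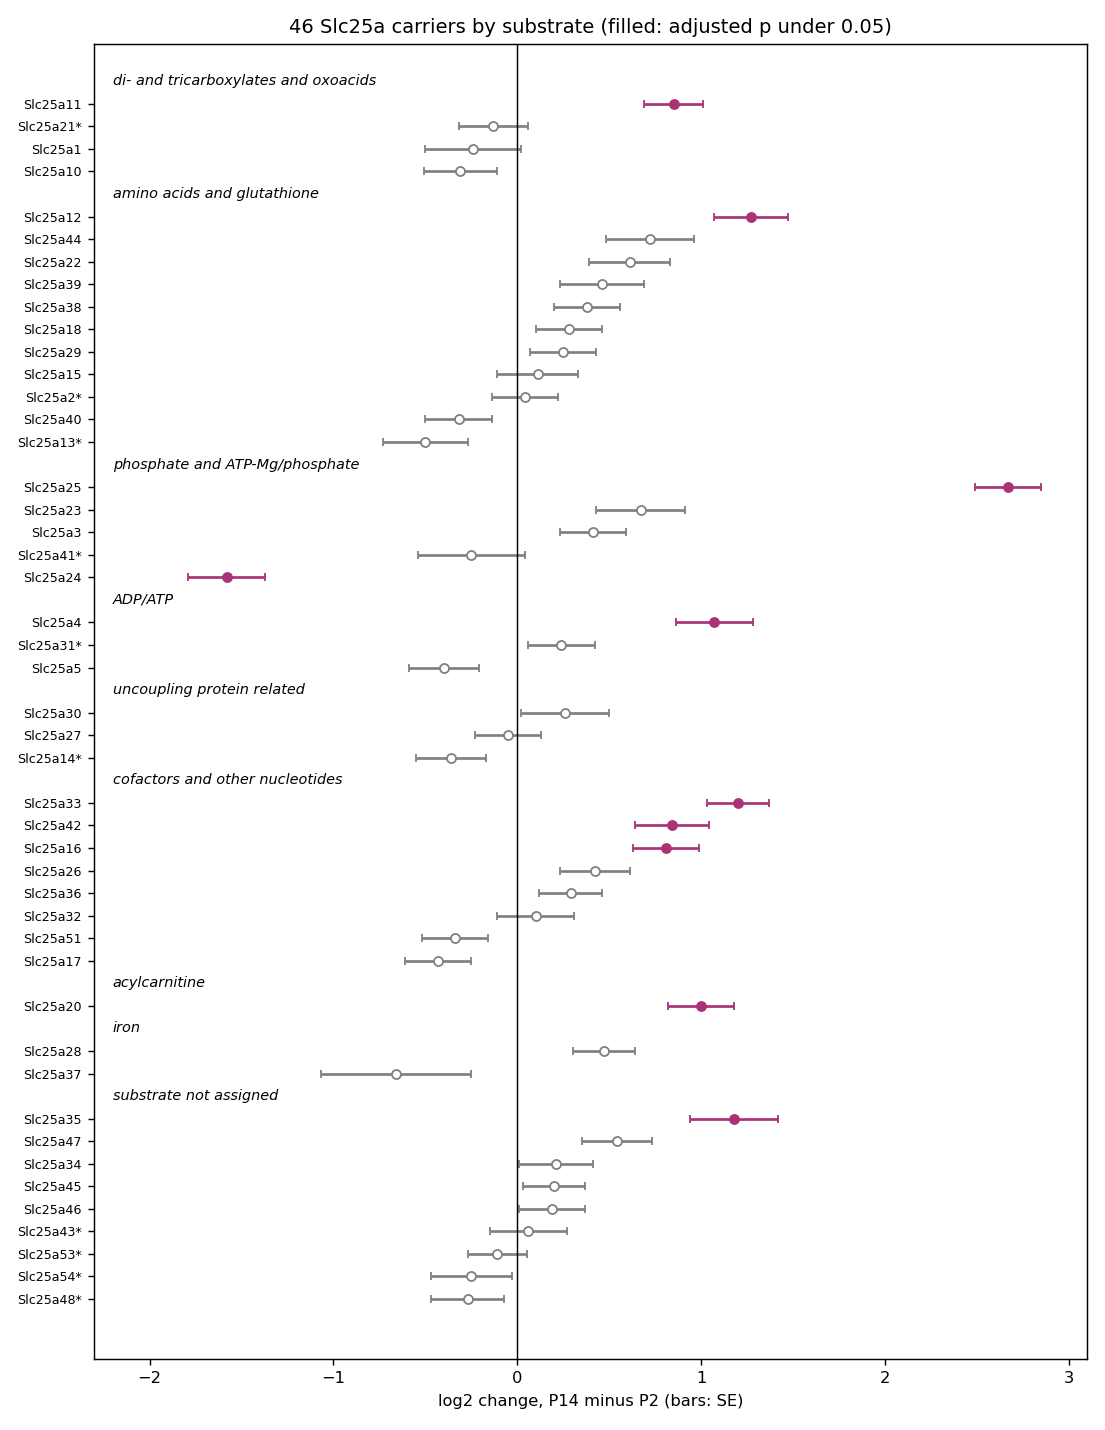
Log2 change of P14 minus P2 for the 46 carriers (horizontal axis, bars are standard errors of the fit), listed by substrate group. Filled points passed an adjusted p under 0.05, and a star marks the 10 carriers under the receptor level at every age. Slc25a25 lies at 2.67 and Slc25a24 at -1.58, in the same substrate group.

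All 9 rises were larger in the second interval, of 7 days, than in the first, of 5 days, as measured values. Between P7 and P14 limma called 4 carriers, all higher at P14, namely Slc25a12, Slc25a20, Slc25a25 and Slc25a33. That is 8.7% of the carriers, and the rule called 2.43% of all genes (1.72% higher and 0.703% lower). An unadjusted p under 0.05 was reached by 28.3% of carriers and 14.6% of all genes. The arrays of P14 and P7 did not overlap in 17 carriers that were higher at P14 (37%, against 14.8% of all genes) and in 2 that were lower (4.35%, against 9.13%). With cyclic loess scaling the split was 3 higher and 1 lower, with Slc25a12 lost and Slc25a24 gained. Between P2 and P7 limma called 0 carriers (0.329% of all genes, 0.185% higher and 0.144% lower). At an unadjusted p under 0.05 there were 5 carriers, or 10.9%, beside 12.8% of all genes. P7 arrays did not overlap with P2 arrays in 3 carriers that were higher (7.3% of all genes) and 2 that were lower (7.9%). The test of the difference between the intervals called only Slc25a25 (0.194% of all genes, 0.0361% higher and 0.158% lower), so for the other 9 carriers a difference in timing was not shown. The P7 arrays enter both intervals.

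**Figure D2:**
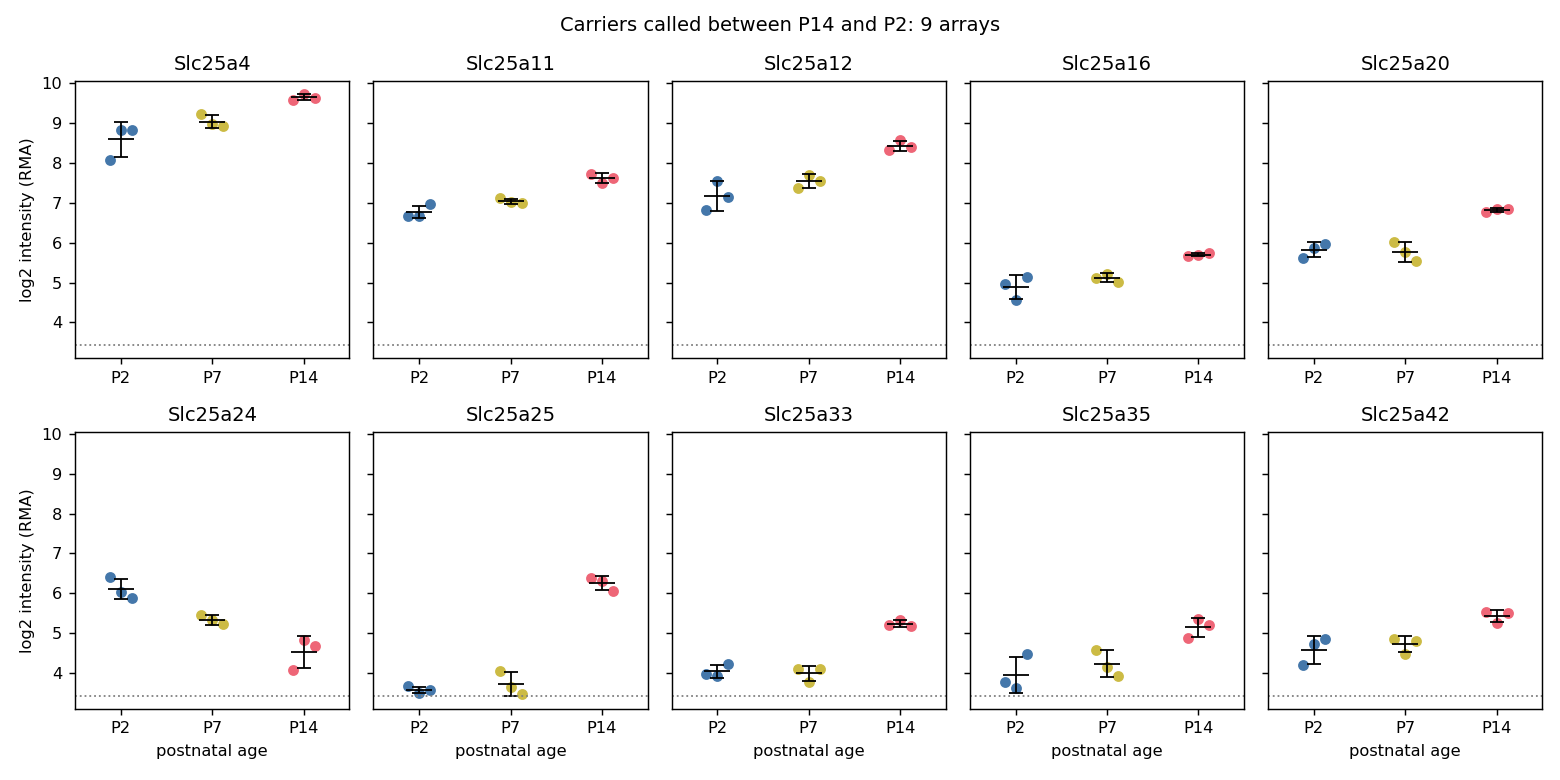
Log2 intensity (vertical axis) of the 10 called carriers on each of the 9 arrays by age. Points are arrays, black bars are the mean and SD of 3 arrays, and the dotted line is the receptor level of 3.43. At P14 the 3 arrays lie above all P2 arrays for 9 carriers, and below them for Slc25a24.

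The 4 carriers called between P7 and P14 are shown with their start regions. In each, P2 and P7 overlapped and all P14 arrays lay above both. That order is not particular to them, as Slc25a16, Slc25a28, Slc25a35, Slc25a38, Slc25a42 and Slc25a44 also had it but were not called between P7 and P14. The share of all genes with that order was not counted. The windows are RefSeq promoters of GRCm38.p6, 300 bases long and spanning a gene's start, and 36 of the 46 carriers matched, with 46 windows. Capitals mark, on either strand, TGACG (part of the cAMP response element, CRE, TGACGTCA, which holds it on both strands), CCGGAAG (a core bound by ETS factors) and GGGCGG (an Sp1 site). The motifs were chosen after the windows had been searched. Slc25a25 has 3 starts in the table, and the 1 shown is that with a full CRE. The probe set does not tell which start was in use.
Slc25a25 (chr2:32424017-32424316, minus strand): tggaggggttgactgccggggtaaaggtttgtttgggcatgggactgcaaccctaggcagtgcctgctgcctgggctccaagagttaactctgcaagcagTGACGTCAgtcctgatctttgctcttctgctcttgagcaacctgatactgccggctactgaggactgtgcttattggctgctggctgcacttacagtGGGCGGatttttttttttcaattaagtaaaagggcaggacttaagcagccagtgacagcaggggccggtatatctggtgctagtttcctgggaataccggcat
Slc25a33 (chr4:149774218-149774517, minus strand): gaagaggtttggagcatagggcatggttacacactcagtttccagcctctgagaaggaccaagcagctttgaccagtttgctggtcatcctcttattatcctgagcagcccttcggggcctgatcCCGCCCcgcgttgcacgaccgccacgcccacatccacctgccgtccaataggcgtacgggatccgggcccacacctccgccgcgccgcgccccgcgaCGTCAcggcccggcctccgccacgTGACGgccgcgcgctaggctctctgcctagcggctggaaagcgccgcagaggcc
Slc25a20 (chr9:108661886-108662185, plus strand): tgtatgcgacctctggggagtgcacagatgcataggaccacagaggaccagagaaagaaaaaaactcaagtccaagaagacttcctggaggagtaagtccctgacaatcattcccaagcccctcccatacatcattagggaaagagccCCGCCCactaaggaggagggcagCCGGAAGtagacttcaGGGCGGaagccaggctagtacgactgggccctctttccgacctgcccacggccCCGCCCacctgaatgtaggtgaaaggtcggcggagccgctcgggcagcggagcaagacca
Slc25a12 (chr2:71367706-71368005, minus strand): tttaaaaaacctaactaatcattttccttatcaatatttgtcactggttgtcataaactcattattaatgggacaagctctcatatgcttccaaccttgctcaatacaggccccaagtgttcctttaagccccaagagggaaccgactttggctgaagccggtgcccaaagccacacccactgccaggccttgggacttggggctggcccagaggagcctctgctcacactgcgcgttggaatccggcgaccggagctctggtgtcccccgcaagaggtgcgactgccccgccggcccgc

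The Slc25a25 window holds 1 GGGCGG and 1 full CRE, TGACGTCA, which was found in 2 of the 36 carrier genes, Slc25a25 and Slc25a36 (4.35% of carrier windows), and in 1.79% of all 32851 windows. The other Slc25a25 windows, at chr2:32431102-32431401 and chr2:32451421-32451720, do not hold it. The latter has 1 match to CCGGAAG and 2 to GGGCGG. The Slc25a33 window has 1 match to GGGCGG and 2 to TGACG, a motif in 28.3% of carrier windows and 20.8% of all windows. The Slc25a20 window has 1 match to CCGGAAG (15.2% of carrier windows and 8.86% of all windows) and 3 to GGGCGG (82.6% of carrier windows and 35.7% of all windows). The Slc25a12 window holds none of the 3 marked motifs. The binding motif of estrogen-related receptors, TNAAGGTCA, occurred in 0 of the 46 carrier windows and 1.28% of all windows, and the palindromic motif of NRF1 in 2 carrier windows and 4.6% of all. Such a match is a run of letters in the reference and not a measured binding site.

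The ATP-Mg/phosphate carriers move adenine nucleotides in and out of the matrix against phosphate and so set the size of the matrix nucleotide pool. The Slc25a23, Slc25a24 and Slc25a25 proteins have calcium-binding domains. Slc25a25 measured 3.67, 3.50 and 3.57 at P2, 4.05, 3.64 and 3.48 at P7, and 6.38, 6.32 and 6.06 at P14. The P2 and P7 arrays lay close to the receptor level and overlapped, and every P14 array lay more than 2 units above them. P14 was 5.80-fold above P7 (log2 2.53 ± 0.18, SE; adjusted p = 4.01e-06, limma) and 6.38-fold above P2 (2.67 ± 0.18, adjusted p = 1.06e-06). The change from P7 to P14 exceeded that from P2 to P7 by 2.40 (adjusted p = 0.00498). That difference kept its call without any 1 array, but not when all 41345 probe sets were tested (adjusted p = 0.0822).

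Slc25a24 ran the other way. It measured 6.40, 6.04 and 5.89 at P2, 5.46, 5.32 and 5.22 at P7, and 4.08, 4.83 and 4.69 at P14. Each age lay wholly below the age before it. P14 was 2.98-fold below P2 (log2 -1.58 ± 0.21, adjusted p = 0.000247). The steps were alike in size, at -0.78 ± 0.21 between P2 and P7 and -0.80 ± 0.21 between P7 and P14, and neither was called (adjusted p = 0.134 and 0.0638). Without P2 replicate 1 the step between P7 and P14 was called (adjusted p = 0.0497), and without P14 replicate 1 it was -0.57 (adjusted p = 0.286). Markers of dividing cells moved with it, as 6 of the 7 measured fell between P2 and P14, with a summed linear intensity of 124 to 133 at P14 and 242 to 399 at P2. Of 7 fibroblast and fibro-adipogenic markers 2 fell, with sums of 3800 to 4380 at P14 and 5360 to 7340 at P2. The log2 changes in the fibroblast list ran from -1.91 to 0.36. Dcn and Lum were on the positive side (0.36 and 0.15) and were not called. Over the same span the rule called 4.4% of all genes lower. All measured markers of both lists were above the receptor level, and their part in the fall of Slc25a24 was not tested.

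Slc25a23 measured 4.48, 5.14 and 5.45 at P2, 5.92, 5.26 and 5.60 at P7, and 5.62, 5.77 and 5.68 at P14. The P14 arrays lay above the P2 arrays, but the change of 0.67 ± 0.24 was not called (adjusted p = 0.0897; called only without P2 replicate 3, adjusted p = 0.0299). It shrank to 0.39 when P2 replicate 1 was left out (adjusted p = 0.318). Slc25a41, a relative that lacks the calcium-binding domain, was under the receptor level. The phosphate carrier Slc25a3, which supplies phosphate to ATP synthase, measured 6.82, 7.15 and 6.84 at P2, 6.88, 6.65 and 6.71 at P7, and 7.57, 7.34 and 7.12 at P14. Its P14 arrays all lay above its P7 arrays, and the change of 0.60 ± 0.18 was not called (adjusted p = 0.103).

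**Figure D3:**
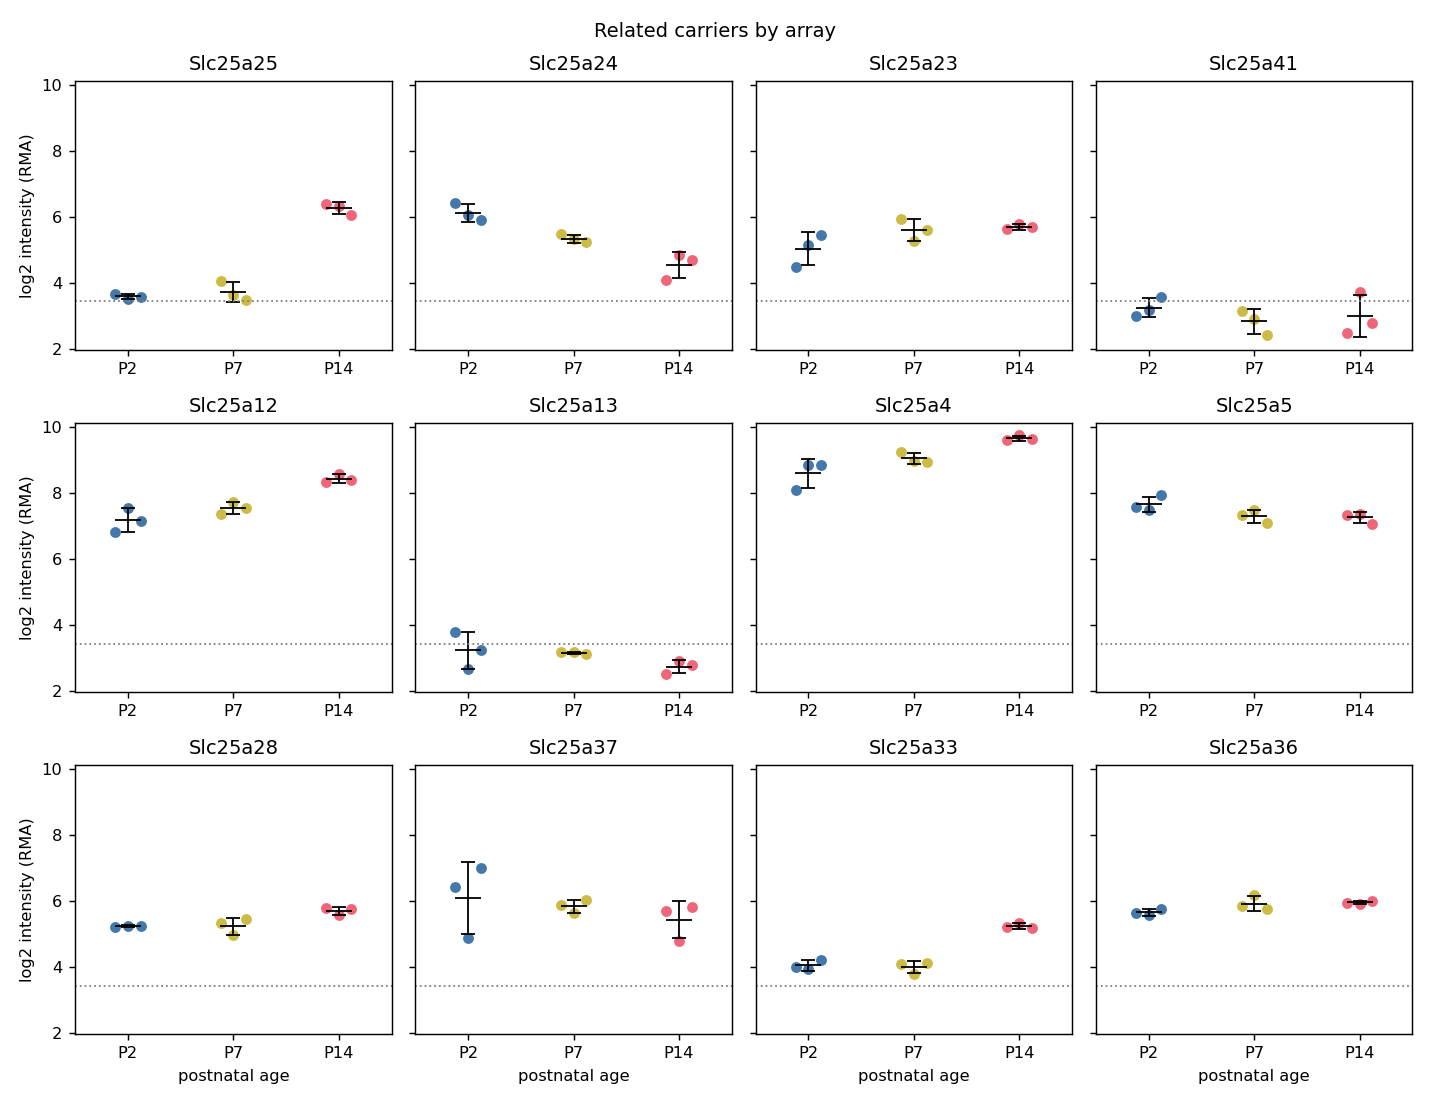
Log2 intensity (vertical axis) by age of related carriers on each of the 9 arrays, with mean and SD of 3 arrays as black bars and the receptor level of 3.43 as the dotted line. Slc25a25 is higher and Slc25a24 lower at P14, Slc25a4 is higher while Slc25a5 is not called, and Slc25a37 is spread from 4.86 to 6.99 at P2.

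The ADP/ATP carriers exchange matrix ATP for cytosolic ADP. Slc25a4 encodes the form typical of heart and skeletal muscle and Slc25a5 a form common in growing cells. Slc25a4 measured 8.08, 8.84 and 8.84 at P2, 9.22, 8.97 and 8.92 at P7, and 9.59, 9.74 and 9.63 at P14. The 3 ages did not overlap, although P2 replicate 1 lay apart from the other P2 arrays. P14 was 2.10-fold above P2 (log2 1.07 ± 0.21, adjusted p = 0.00416), and the call held under all 19 alternatives tried, with log2 changes of 0.82 to 1.20. Slc25a5 measured 7.57, 7.48 and 7.92 at P2, 7.32, 7.48 and 7.08 at P7, and 7.34, 7.37 and 7.04 at P14. Its P14 arrays lay below its P2 arrays, but the change of -0.40 ± 0.19 was not called (adjusted p = 0.198). Slc25a31, a form known from testis, stayed under the receptor level.

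Slc25a12 and Slc25a13 encode the 2 aspartate/glutamate carriers. Aralar, the Slc25a12 product, is the form of muscle and brain, and citrin, the Slc25a13 product, is known from liver. Slc25a12 measured 6.81, 7.55 and 7.14 at P2, 7.36, 7.71 and 7.55 at P7, and 8.33, 8.57 and 8.40 at P14. All P14 arrays lay above the other 6. P14 was 1.86-fold above P7 (log2 0.89 ± 0.20, adjusted p = 0.0289) and 2.41-fold above P2 (1.27 ± 0.20, adjusted p = 0.000882). The call against P7 did not survive the removal of any single P7 or P14 array, with a highest adjusted p of 0.146 when P14 replicate 2 was left out. The call against P2 held under all 19 alternatives. Slc25a13 had a mean under the receptor level at every age, with 3.78, 2.67 and 3.22 at P2, 3.17, 3.16 and 3.11 at P7, and 2.51, 2.90 and 2.77 at P14. Its change between P2 and P14 was -0.50 ± 0.23 (adjusted p = 0.210), and -0.77 without P2 replicate 2, which was called (adjusted p = 0.0265). Without P2 replicate 1 it was -0.22 (adjusted p = 0.607).

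With Slc25a12, the malate/oxoglutarate carrier Slc25a11 completes the malate-aspartate shuttle, which carries reducing equivalents from cytosolic NADH into the matrix. Slc25a11 measured 6.67, 6.68 and 6.96 at P2, 7.11, 7.03 and 7.00 at P7, and 7.73, 7.49 and 7.63 at P14. The 3 ages did not overlap. P14 was 1.80-fold above P2 (log2 0.85 ± 0.16, adjusted p = 0.00375), while the step between P7 and P14, 0.57 ± 0.16, was not called (adjusted p = 0.0859).

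The 4 enzymes of the shuttle also rose between P2 and P14, at log2 changes of 1.86 ± 0.20 for the cytosolic aminotransferase Got1, 1.07 ± 0.17 for the mitochondrial Got2, 0.84 ± 0.15 for the mitochondrial malate dehydrogenase Mdh2 and 0.64 ± 0.19 for the cytosolic Mdh1. Their adjusted p-values in limma were 4.28e-05, 0.0011, 0.00273 and 0.0409. Mdh1 lost its call without any P14 array, P2 replicate 1 or 3, or P7 replicate 1 (adjusted p up to 0.130). Between P7 and P14, Got1, Got2 and Mdh2 were called higher (1.16 ± 0.20, 0.78 ± 0.17 and 0.64 ± 0.15), of which Got1 held under all 19 alternatives. Removing any single array of P7 or of P14 ended the Mdh2 call, with 0.167 as the highest adjusted p, and it was also lost with all probe sets tested, cyclic loess, the replicate block or the Xist covariate. Got2 lost it without P7 replicate 2 or 3 or any P14 array (adjusted p up to 0.148), with all probe sets tested, and with the mean of its probe sets, where the change was 0.48 (adjusted p = 0.141). Citrate cycle enzymes, which share the matrix with these reactions, had 14 rises and 1 fall among 16 measured genes between P2 and P14. The same rule called 6.63% of all genes higher and 4.4% lower. All 16 lay above the receptor level, where it called 17.4% of genes in either direction. The median log2 change of the 16 was 0.82, and Mdh2 is counted in both lists. The fall was that of Idh2, the NADP-dependent isocitrate dehydrogenase (-1.23 ± 0.19, adjusted p = 0.000762).

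The citrate carrier Slc25a1, which exports citrate for lipid synthesis, and the dicarboxylate carrier Slc25a10 were not called. Slc25a1 measured 5.21, 4.21 and 5.50 at P2, 4.87, 4.71 and 4.67 at P7, and 4.59, 4.74 and 4.87 at P14. P2 replicate 2 was the lowest of the 9 arrays and the other P2 arrays the highest. The change between P2 and P14 was -0.24 ± 0.26 with all arrays (adjusted p = 0.643) and -0.62 ± 0.18 without P2 replicate 2 (adjusted p = 0.0419), while without P2 replicate 3 its direction turned, at 0.03 (adjusted p = 0.962). Slc25a10 changed by -0.31 ± 0.20 (adjusted p = 0.367).

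The acylcarnitine carrier Slc25a20 brings fatty acids, bound to carnitine, into the matrix for oxidation. It measured 5.61, 5.86 and 5.98 at P2, 6.02, 5.77 and 5.53 at P7, and 6.77, 6.85 and 6.85 at P14. P2 and P7 overlapped, and the P14 arrays lay above both and within 0.1 of each other. P14 was 2.07-fold above P7 (log2 1.05 ± 0.18, adjusted p = 0.00496) and 2.00-fold above P2 (1.0 ± 0.18, adjusted p = 0.00216), and both calls held under all 19 alternatives. Between P2 and P7 the change was -0.05 ± 0.18, but the difference between the intervals, 1.09, was not called (adjusted p = 0.285). Among the enzymes of the carnitine shuttle, Cpt2 of the inner membrane was higher at P14 than at P7 (0.81 ± 0.16, adjusted p = 0.0165). It lost that call without P7 replicate 1 or 2 or any P14 array (adjusted p up to 0.104), and also with all probe sets tested. Crat (0.52 ± 0.18) and Cpt1a, the liver form of the outer membrane enzyme (-0.49 ± 0.18), were not called there, and the muscle form was not analysed here.

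**Figure D4:**
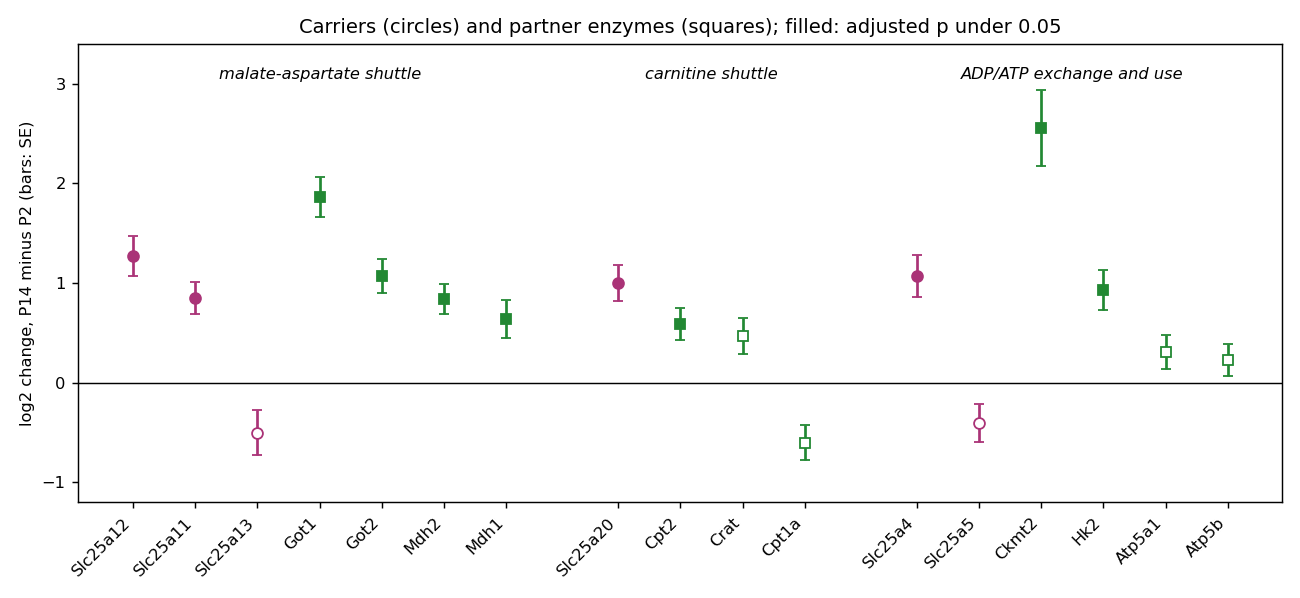
Log2 change of P14 minus P2 (vertical axis, bars are standard errors) of carriers (circles) and of enzymes that work with them (squares), in 3 systems. Filled symbols passed an adjusted p under 0.05. In the malate-aspartate shuttle Slc25a12, Slc25a11 and the 4 enzymes are filled and positive, and Slc25a13 is open at -0.50.

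Carriers of cofactors and of nucleotides other than ADP and ATP had 8 measured members. Between P2 and P14, 3 rose, 0 fell and 5 were not called (median log2 change 0.36). All 8 were above the receptor level, and the rule called 11% of all genes and 17.4% of genes above that level. Slc25a33 imports pyrimidine nucleotides, which mitochondrial DNA and RNA synthesis needs. It measured 3.98, 3.92 and 4.22 at P2, 4.09, 3.78 and 4.11 at P7, and 5.20, 5.34 and 5.19 at P14. The P2 and P7 arrays overlapped and all P14 arrays lay above them. P14 was 2.38-fold above P7 (log2 1.25 ± 0.17, adjusted p = 0.000753) and 2.30-fold above P2 (1.20 ± 0.17, adjusted p = 0.000377), under all 19 alternatives as well. The difference between the intervals, 1.30, was not called (adjusted p = 0.142). Slc25a36, the other pyrimidine nucleotide carrier, changed by 0.29 ± 0.17 between P2 and P14 and was not called (adjusted p = 0.312).

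Slc25a42 exchanges coenzyme A for adenine nucleotides. It measured 4.19, 4.72 and 4.86 at P2, 4.86, 4.49 and 4.81 at P7, and 5.54, 5.26 and 5.51 at P14. All P14 arrays were above the others, 1.79-fold above P2 (log2 0.84 ± 0.20, adjusted p = 0.0134). Leaving out P2 replicate 1, P14 replicate 1 or P14 replicate 3 ended the call, with adjusted p reaching 0.0630 in the case of P14 replicate 1. Slc25a16, which has been linked to coenzyme A supply, measured 4.96, 4.57 and 5.14 at P2, 5.12, 5.22 and 5.01 at P7, and 5.67, 5.69 and 5.74 at P14. The P14 arrays lay above all others and P14 was 1.76-fold above P2 (log2 0.81 ± 0.18, adjusted p = 0.00859). The methionine cofactor carrier Slc25a26 (S-adenosylmethionine) measured 3.55, 3.89 and 3.99 at P2, 4.07, 4.05 and 3.66 at P7, and 4.05, 4.32 and 4.32 at P14. It changed by 0.42 ± 0.19, and Slc25a17, a carrier of the peroxisome, by -0.43 ± 0.18, and neither was called (adjusted p = 0.179 and 0.145). Slc25a17 measured 5.93, 6.05 and 5.99 at P2, 5.67, 5.80 and 5.33 at P7, and 5.40, 5.56 and 5.73 at P14, with all later arrays below the P2 arrays. Slc25a32 and the NAD carrier Slc25a51 were at 0.10 and -0.34 and were not called.

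Of 11 carriers of amino acids and glutathione, Slc25a12 rose between P2 and P14, 0 fell and 10 were not called (median log2 change 0.28). The rule called 11% of all genes, so this count is near the background. After Slc25a12 the next by size was Slc25a44, a carrier of branched-chain amino acids. It measured 4.35, 3.86 and 4.89 at P2, 4.56, 4.36 and 4.0 at P7, and 5.17, 4.99 and 5.11 at P14. Its P14 arrays lay above all others, and the changes of 0.78 ± 0.24 from P7 and 0.72 ± 0.24 from P2 were not called (adjusted p = 0.105 and 0.0641). Leaving out P2 replicate 2 gave 0.47 against P2 (adjusted p = 0.192). Leaving out P2 replicate 3 gave 0.99 and a call (adjusted p = 0.0101). Against P7 it was called when P2 replicate 2 or P2 replicate 3 was left out. The glutamate carrier Slc25a22 had 3.56, 3.41 and 4.29 at P2, 4.11, 3.79 and 4.07 at P7, and 4.53, 4.22 and 4.34 at P14, with overlap between P2 and P14 and a change of 0.61 ± 0.22 (adjusted p = 0.0955). That change was 0.44 without P2 replicate 2 (adjusted p = 0.248) and 0.88, with a call, without P2 replicate 3 (adjusted p = 0.00872). The glutathione carriers Slc25a39 and Slc25a40 changed by 0.46 and -0.32, the glycine carrier Slc25a38, needed for heme synthesis, by 0.38, and the ornithine carrier Slc25a15 by 0.11. Slc25a18, Slc25a29 and Slc25a2 lay at 0.28, 0.25 and 0.04, and the oxoacid carrier Slc25a21 of the carboxylate group at -0.13. None of these 8 was called (adjusted p of 0.216 or more).

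The 2 iron carriers, mitoferrin 1 (Slc25a37, the form of red cell precursors) and mitoferrin 2 (Slc25a28, found in many tissues), were not called with all arrays. Slc25a28 measured 5.20, 5.24 and 5.25 at P2, 5.32, 4.95 and 5.44 at P7, and 5.78, 5.56 and 5.76 at P14, and its P14 arrays lay above all others (0.47 ± 0.17 against P2, adjusted p = 0.103). Slc25a37 measured 6.41, 4.86 and 6.99 at P2, 5.87, 5.62 and 6.02 at P7, and 5.69, 4.78 and 5.80 at P14. It had the largest SE of the 46 carriers in the comparison of P14 with P2 (-0.66 ± 0.41, adjusted p = 0.357). Without P2 replicate 2 the change was -1.28 ± 0.29 and was called (adjusted p = 0.0120), whereas without P2 replicate 3 it was -0.21 (adjusted p = 0.788) and without P14 replicate 2 it was -0.34 (adjusted p = 0.743). The erythroid marker Slc4a1, the anion exchanger of red cells, measured 6.02, 3.65 and 6.85 on the same P2 arrays, with P2 replicate 2 again the lowest. It was at 5.35, 4.83 and 5.87 at P7 and at 4.13, 3.94 and 3.54 at P14. The summed linear intensity of the 3 measured erythroid markers of 10 listed, all above the receptor level in at least 1 age, was 34.4 to 42.7 at P14 and 41.2 to 161 at P2. Their part in the values of Slc25a37 was not tested.

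The carriers related to uncoupling proteins, Slc25a14, Slc25a27 and Slc25a30, had 0 calls, with log2 changes of -0.36, -0.05 and 0.26 between P2 and P14. Among 9 carriers with no substrate assigned, 1 rose and 8 were not called between P2 and P14. The rule called 11% of all genes, and 1 of 9 is near that share. Slc25a35 measured 3.78, 3.63 and 4.47 at P2, 4.59, 4.16 and 3.93 at P7, and 4.88, 5.36 and 5.20 at P14. P2 and P7 overlapped, all P14 arrays were above both, and P14 was 2.27-fold above P2 (log2 1.18 ± 0.24, adjusted p = 0.00517). Slc25a47, a carrier known from liver, measured 4.02, 3.82 and 3.98 at P2, 4.71, 4.28 and 4.23 at P7, and 4.39, 4.73 and 4.32 at P14. Both later ages lay above P2, and the change of 0.54 ± 0.19 between P2 and P14 was not called (adjusted p = 0.0806). Slc25a46, which belongs to the outer membrane, was at 0.19 ± 0.18, and the other 6 carriers of this group lay between -0.27 (Slc25a48) and 0.21 (Slc25a34).

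**Figure D5:**
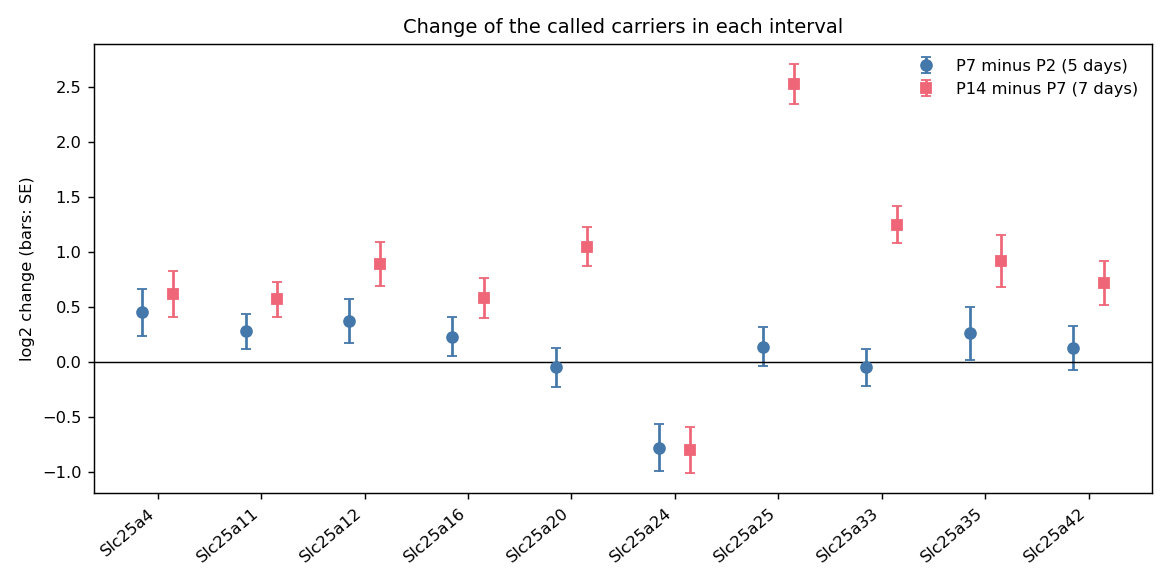
Log2 change (vertical axis, bars are standard errors) of the 10 called carriers between P2 and P7 (circles, 5 days) and between P7 and P14 (squares, 7 days). The P7 arrays are shared by both changes. Slc25a25 stands at 0.14 and 2.53, and Slc25a24 at -0.78 and -0.80.

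Other proteins of the family carry names outside the Slc25a series. Uncoupling protein 3 (Ucp3), found in skeletal muscle, measured 4.80, 5.81 and 5.62 at P2, 6.62, 6.80 and 6.84 at P7, and 7.52, 7.68 and 7.48 at P14. The 3 ages did not overlap, and P14 was 4.42-fold above P2 (log2 2.15 ± 0.23, adjusted p = 3.1e-05). The rise between P2 and P7, 1.34 ± 0.23, was called (adjusted p = 0.0235) but lost on removing any single P7 array (adjusted p up to 0.123). It was also lost with all probe sets tested, the Xist covariate or only the 2 ages compared (adjusted p up to 0.139). The call held under 13 of the 19 alternatives. Mtch2, an outer membrane relative, rose by 0.96 ± 0.18 between P2 and P14 (adjusted p = 0.00345), and Mtch1 did not pass (-0.28 ± 0.21).

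Among 17 measured genes of other mitochondrial membrane transport, 3 rose, 1 fell and 13 were not called between P2 and P14, with a median log2 change of 0.27. The rule called 11% of all genes and 17.4% of genes above the receptor level, where all 17 lay. This count is above the first share and nearer to the second. For the Slc25a carriers the shares were 21.7% of all and 27.8% of those above that level. The pyruvate carrier subunit Mpc1 rose by 1.56 ± 0.28 (adjusted p = 0.0021), the inner membrane cation exchanger gene Letm1 by 1.45 ± 0.25 (adjusted p = 0.00184) and the outer membrane channel Vdac3 by 0.72 ± 0.18 (adjusted p = 0.021, and 0.0839 at most when P2 replicate 1 or a P14 array was left out). Micu2, a regulator of the calcium uniporter, fell by 0.86 on the log2 scale (SE 0.16, adjusted p = 0.00272). Among 8 measured genes of ADP and ATP use at the membrane, 2 rose, 0 fell and 6 were not called between P2 and P14. Their median log2 change was 0.37, and 7 of the 8 lay above the receptor level. The shares of 11% and 17.4% apply here as well. The genes that rose were the muscle mitochondrial creatine kinase Ckmt2 and hexokinase Hk2, Hk2 by 0.93 ± 0.20 (adjusted p = 0.00913). Ckmt2 measured 9.46, 9.50 and 9.59 at P14, against 5.66, 7.61 and 7.62 at P2 (2.56 ± 0.38, adjusted p = 0.000624), with P2 replicate 1 the lowest array, as for Slc25a4.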

How the data were processed

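The deposited table gives 1 log2 intensity per probe set and array for 41345 probe sets on 9 arrays. Per the submitters' processing notes the authors used RMA and Partek, with no version given, and the log2 base is taken from RMA. RMA normalises between arrays, so a shift shared by all genes is not seen. Array medians were 3.29 to 3.36. With 3 arrays an age, precision is set by that number.

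Probe sets with 1 gene symbol (23521) were used, symbols were updated by Entrez number through RefSeq GRCm38.p6 (23328 matched), and the brightest probe set per gene was kept. No dim gene was removed. The model had a mean for each age, took all 9 arrays, and was fitted and moderated by limma 3.58.1 (R 4.3.3). Tests were two-sided, with Benjamini-Hochberg adjustment over 22180 genes and calls at an adjusted p under 0.05. The script was tested on simulated data.

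The carriers, substrate groups and lists were chosen with earlier results of these data known. Values on every array are given for called carriers and for the 10 next by the F-test. Slc25a1 and Slc25a37 were added after their values were seen. Among other genes up to 4 called per list are named. Alternatives were other probe set rules, a filter on dim genes, median centring, cyclic loess, the replicate number as a block, array weights, a variance trend, only the 2 ages compared, each array left out, and the Xist level as a covariate, the last chosen after seeing the data because no sex was known. Protein sequences were not used here.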

Additional observations from a re-analysis of the deposited data

Results flagged for a closer look

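For Slc25a25 the log2 change from P7 to P14 exceeded the change from P2 to P7 by 2.40 (2.53 and 0.14), a difference between the intervals that limma's contrast called (adjusted p = 0.00498). The rule called 0.194% of all genes (43 of 22180), 8 of them with a positive difference. Leaving out single arrays kept the call, with adjusted p up to 0.0466 (without P7 replicate 2), but testing all probe sets lost it. The Slc25a25 means of 3.58 at P2 and 3.72 at P7 lay close to the receptor level of 3.43. A change between those ages would be hard to see there.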

How the results depend on the processing

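Of 15 carrier calls between ages or intervals, 12 held under every alternative and 3 were lost at least once. No value changed its sign with a call. The lost calls were Slc25a12 (P14 against P7), Slc25a42 (P14 against P2) and the interval difference of Slc25a25. Besides the losses given above, Slc25a12 and Slc25a42 lost theirs with all probe sets tested, and Slc25a12 also with the Xist covariate. Between P7 and P14 the 4 carriers called became 8 with only genes above the receptor level, 7 with a variance trend, 10 with array weights and 11 with only the 2 ages compared, in each case with Slc25a24 as the 1 lower carrier; without single arrays 3 to 6 were called. Between P2 and P14 the 10 carriers were 9 to 13 without single arrays, the most without P2 replicate 2 or P2 replicate 3. With all probe sets tested, the interval difference was called in 0 carriers (1 otherwise) and the F-test over the 3 ages in 6 (10 otherwise); without single arrays the F-test called 5 to 12, with 6, 6 and 5 without P14 replicate 1, 2 and 3. Between P2 and P7 every alternative called 0 carriers.

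Over all genes, 73 calls between P2 and P7 became 6 with all probe sets, 173 with the filter, 111 with cyclic loess, 159 with a trend, 35 with Xist and 12 with only the 2 ages compared, and the split of 41 higher and 32 lower was 32 and 38 after median centring. Between P7 and P14, 538 calls became 272 with all probe sets, 818 with the filter, 1221 with array weights and 1051 with only the 2 ages, and the split of 382 higher and 156 lower was 277 and 195 with cyclic loess. The interval difference had 43 calls, 1 with all probe sets and 24 with Xist, and the F-test 1827, and 1003 with all probe sets. Other causes of these shifts were not tested. Same-numbered arrays of different ages showed little correlation of their deviations over all genes (-0.029 to 0.057). That cannot exclude a shared factor that acts on few genes. The replicate block kept 4 and 10 carriers called in P14 against P7 and P14 against P2.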

Other observations

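Genes of heme and iron-sulfur cluster synthesis use the iron and glycine that carriers bring into the matrix. Between P2 and P14 they had 4 rises, 0 falls and 3 genes not called among 7 measured. The same rule called 6.63% of all genes higher and 4.4% lower. All 7 lay above the receptor level, where it called 17.4% of genes in either direction. Alas1, the first enzyme of heme synthesis outside red cells, measured 6.30, 6.33 and 6.55 at P14, against 5.36, 5.26 and 5.43 at P2 (log2 1.04 ± 0.16, adjusted p = 0.000662 in limma). The cluster assembly genes Isca1 (1.18 ± 0.19, adjusted p = 0.00125) and Iscu (1.17 ± 0.22, adjusted p = 0.00284) rose under all 19 alternatives, and Isca2 (0.83 ± 0.25, adjusted p = 0.0466) was called under 8 of the 19 and was 0.50 without P2 replicate 2 (adjusted p = 0.127). The heme enzyme Cpox measured 6.56, 4.51 and 5.91 at P2, with P2 replicate 2 the lowest, as for Slc25a37, and was not called.

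A probe set that names both Rangrf and Slc25a35 was left out of the comparisons. It measured 4.64, 4.43 and 3.96 at P14, against 4.16, 5.20 and 3.96 at P2 (log2 -0.10 ± 0.33, adjusted p = 0.912 over all probe sets), whereas the Slc25a35 probe set used above was higher on every P14 array.

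Ucp1, the uncoupling protein of brown fat, measured 5.16 on P14 replicate 3 and was under the receptor level on the other 8 arrays. The other brown adipocyte markers did not all rank the same way on that array. Among the P14 arrays it was the highest for Cidea (4.85, against 3.73 and 3.26), Plin1 (4.6), Plin5 (5.12, against 4.94 and 5.08) and Fabp4 (9.53). It was the lowest for Adipoq (3.71, against 3.80 and 3.85) and Elovl3 (2.13, against 2.21 and 2.20). Elovl3 was under the receptor level at every age, so its rank says little.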
